A study of Mus musculus with 6 samples.

Results

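The let-7 family was examined as the 9 mature 5p arms of let-7a, let-7b, let-7c, let-7d, let-7e, let-7f, let-7g, let-7i and miR-98 in mouse intestine. The members were chosen by name, as listed rows of a table of 604 miRNAs, and all 9 were found and passed the minimum for testing (a back-transformed value of at least 10 in at least 3 libraries), which 386 miRNAs passed in all. Small RNA of intestinal tissue was sequenced in 3 Control and 3 NEC libraries of wild-type C57BL/6J pups. NEC, necrotizing enterocolitis, was modelled from day 5 for 4 days by gavage of 40 μl of 33% Esbilac formula every 4 h, and every 12 h by 100 s in 99.9% N2 followed by 10 min in the cold at 4 °C. Control pups fed from the dam without either stress, and their labels give PBS as the treatment. The paper's methods name the ileum as the tissue collected. The model is a stress protocol in healthy pups and carries no transgene. No source used here ties a library to its own pup, and the p-values measure only the spread between these libraries, which may be technical.

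Let-7 was among the first miRNAs known, as a timer of development in the worm Caenorhabditis elegans, and in mammals its mature forms accumulate as tissues leave the fetal state. The RNA-binding proteins LIN28A and LIN28B hold the precursors back from processing, and the mature miRNAs repress growth and fetal genes such as Hmga2, Lin28b and members of the Igf2bp family. In the mouse intestine, LIN28B and let-7 are known to act against each other on epithelial growth. A miRNA finds its targets mainly through its seed, the bases 2 to 8 from the 5′ end, and members with 1 seed are expected to share many targets.

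The sequences are shown because all 9 members carry 1 seed and are told apart by a few bases outside it. They are the mature sequences of RefSeq on GRCm38.p6, 5′ to 3′, with the seed in capitals.
mmu-let-7a-5p: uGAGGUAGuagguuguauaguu
mmu-let-7b-5p: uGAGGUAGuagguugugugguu
mmu-let-7c-5p: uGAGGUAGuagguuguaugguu
mmu-let-7d-5p: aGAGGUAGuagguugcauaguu
mmu-let-7e-5p: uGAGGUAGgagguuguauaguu
mmu-let-7f-5p: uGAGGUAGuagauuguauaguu
mmu-let-7g-5p: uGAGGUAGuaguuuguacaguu
mmu-let-7i-5p: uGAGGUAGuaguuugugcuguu
mmu-miR-98-5p: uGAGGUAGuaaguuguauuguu

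Each sequence is 22 bases long, so that levels are compared at equal length. Of the 526 miRNAs of the table with a RefSeq sequence, 9 had this seed, and these were the 9 members. Positions are counted from 1 at the 5′ end, with the base of let-7a-5p first. Against let-7a-5p, let-7c-5p differs by A19G, let-7e-5p by U9G, let-7f-5p by G12A, and let-7b-5p by A17G and A19G. The others differ by U1A and U16C (let-7d-5p), G12U and U18C (let-7g-5p), G11A and A19U (miR-98-5p), and G12U, A17G, U18C and A19U (let-7i-5p). In 4 of the 36 pairs of members only 1 base differs. The sources used here do not say how reads that fit several members were assigned, so the split of signal between such near-identical members is uncertain.

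The 9 members are made from 12 hairpins, and let-7a, let-7c and let-7f each come from more than 1 of them. On GRCm38, Mirlet7d (chr13:48536012-48536114), Mirlet7f-1 (chr13:48537829-48537917) and Mirlet7a-1 (chr13:48538179-48538272) lie in a row on the minus strand, in an exon of the lincRNA 6720427I07Rik of GENCODE M21. Mirlet7c-2 (chr15:85706603-85706697) and Mirlet7b (chr15:85707319-85707403) are neighbours on the plus strand, in an exon of the transcript Lncppara. Mirlet7f-2 (chrX:151912346-151912428) and Mir98 (chrX:151913214-151913321) share an intron of Huwe1, a ubiquitin ligase gene, on the plus strand. Mirlet7g (chr9:106178840-106178927, plus strand) lies in an intron of Wdr82, and Mirlet7i (chr10:122985640-122985724, minus strand) in an exon of the transcribed pseudogene D630033A02Rik. The remaining 3 hairpins stand beside hairpins of the miR-99/100 and miR-125 families, which are conserved companions of let-7. Mirlet7c-1 (chr16:77599657-77599750) follows Mir99a in an intron of Mir99ahg, Mirlet7a-2 (chr9:41536716-41536811) lies between Mir100 and Mir125b-1 in an intron of 3110039I08Rik, and Mirlet7e (chr17:17830352-17830444) precedes Mir125a within Spaca6, all 3 on the plus strand.

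The deposited values are normalized by the authors and lie on a log2 scale. Low values appear to be drawn towards their mean over libraries, though the sources used here do not name the transformation. A difference between 2 values is therefore a difference on this scale and no fold change of counts, and the sequencing depth behind a value is unknown. The library codes of the labels fall into 2 series, whose meaning the labels do not give. Code series 1 holds Control replicates 1 and 2 with NEC replicates 2 and 3, and code series 2 holds Control replicate 3 and NEC replicate 1. The median value of a library was 4.78 to 5.01. Among miRNAs known from the intestine, the summed level of 8 epithelial miRNAs, with miR-192-5p, miR-194-5p and miR-215-5p among them, was 18.35 to 19.18 on the log2 scale in Control and 18.27 to 19.01 in NEC. That of 4 miRNAs of smooth muscle and mesenchyme was 18.75 to 19.42 and 18.64 to 18.92. These markers of the labelled tissue were abundant in each library. In bulk tissue, fewer cells of a type and less miRNA per cell cannot be told apart.

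The most abundant member was let-7i-5p, the 7th miRNA of the whole table by mean level. Its log2 values were 15.99, 15.44 and 15.48 in Control replicates 1, 2 and 3 and 15.34, 15.43 and 15.55 in NEC replicates 1, 2 and 3. Control replicate 1 stood above the other 5 libraries, whose groups overlapped. It was followed by let-7g-5p, with 14.68, 14.24 and 14.54 in Control and 14.35, 14.14 and 14.49 in NEC, and these overlapped as well. The values of let-7f-5p were 14.85, 14.27 and 13.94 in Control and 14.15, 14.21 and 14.68 in NEC, with 1 high library in each group. The order of let-7g-5p and let-7f-5p was not fixed, since let-7g-5p was above let-7f-5p in 2 of 6 libraries.

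A middle tier held let-7a-5p and let-7c-5p, the pair that differs by A19G. The log2 values of let-7a-5p were 13.20, 12.78 and 12.05 in Control and 11.96, 12.76 and 12.79 in NEC. For let-7c-5p they were 12.82, 12.57 and 11.68 in Control and 11.66, 12.45 and 12.23 in NEC. The lowest value of each group came for both members from code series 2. The level of let-7a-5p was above that of let-7c-5p in 6 of 6 libraries.

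Next came let-7b-5p, let-7d-5p and let-7e-5p, whose means over the 6 libraries were 11.39, 11.31 and 11.24 and whose order changed between libraries. The log2 values of let-7b-5p were 12.14, 11.97 and 10.78 in Control and 10.53, 11.59 and 11.35 in NEC. For let-7d-5p they were 11.97, 11.70 and 10.69 in Control and 10.46, 11.52 and 11.51 in NEC. For let-7e-5p they were 12.21, 11.54 and 10.38 in Control and 10.41, 11.57 and 11.35 in NEC. For each of these 3 members the libraries of code series 2, Control replicate 3 and NEC replicate 1, lay under the other 4. Outside the family, miR-26b-5p and miR-15b-5p had this pattern too and miR-141-3p the reverse, and the share over all miRNAs was not counted. The lowest member was miR-98-5p, with 9.14, 8.60 and 8.65 in Control and 8.55, 8.39 and 8.59 in NEC. It was a single member far below the rest, 2.59 on the log2 scale under let-7e-5p by the mean over all libraries.

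**Figure D1:**
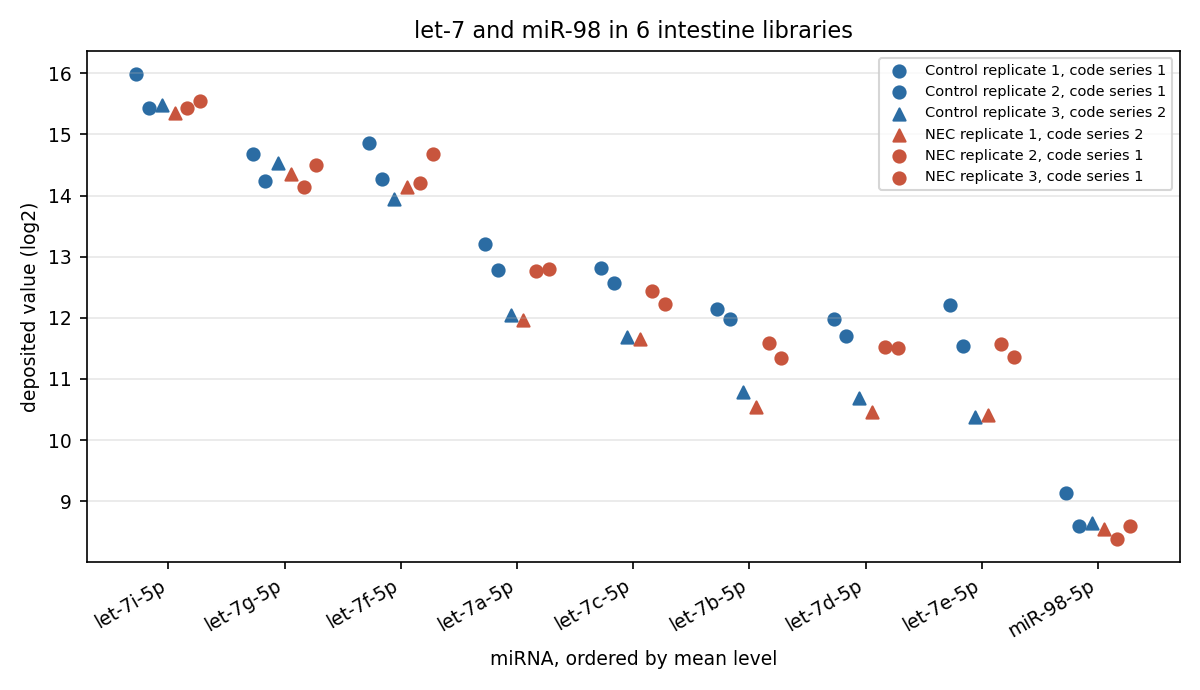
Deposited log2 values (y axis) of the 9 members (x axis, ordered by mean level) in each library, coloured by group and shaped by code series. Control replicate 1 was the highest library for each of the 9 members, from 15.99 for let-7i-5p to 9.14 for miR-98-5p, and the triangles of code series 2 lie under the circles for let-7a-5p, let-7b-5p, let-7c-5p, let-7d-5p, let-7e-5p and let-7f-5p. MiRNAs outside the family also had lower triangles, and their share was not counted.

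Control replicate 1 was the highest of the 6 libraries for 9 of the 9 members, against 111 of the 386 miRNAs tested. The SD of a member over the 6 libraries ran from 0.20 for let-7g-5p to 0.72 for let-7e-5p. The members together held 7.67%, 7.16% and 4.61% of the back-transformed values in Control replicates 1, 2 and 3 and 4.33%, 6.63% and 6.76% in NEC replicates 1, 2 and 3. The 2 lowest shares were those of code series 2, 1 from each group, but this order depended on the total used. Against a total without the 10 most abundant miRNAs, the family sum came to 21.9% in Control replicate 3 and 20.6% in NEC replicate 1. In code series 1 it ran from 20.8% (NEC replicate 2) to 25.4% (Control replicate 1), so the series overlapped in this ratio. Of this family signal, let-7i-5p alone made up 40.7% to 46.6%, and let-7i-5p was the only member among the 10 most abundant miRNAs of the table.

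The comparison of NEC with Control asks which let-7 members differ when the intestine of a pup is injured. All 9 members had a lower mean in NEC, but no member passed the test, and none of the 386 miRNAs did (0% called at an adjusted p under 0.05, limma with Benjamini-Hochberg adjustment). At an unadjusted p under 0.05 there were 0 members and 11 of all miRNAs. The smallest adjusted p was 0.998, for the members as for the whole table. Over all miRNAs tested, 48.2% had a lower mean in NEC. The median log2 difference of NEC minus Control was -0.25 over the 9 members and 0.01 over all 386. All 9 members share a seed, some share a locus, and at most 6 bases differ between 2 members, so their common sign is no count of separate results.

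The member furthest from 0 was let-7b-5p, which makes a cluster with let-7c-2. The Control libraries had a log2 level of 11.63 ± 0.74 (SD, n = 3) and the NEC libraries one of 11.16 ± 0.55 (SD, n = 3). NEC minus Control was thus -0.47 ± 0.45 (standard error) on the log2 scale, with an adjusted p of 0.998 by limma. The 95% interval of this difference, -1.52 to 0.57, covers no difference as well as a decrease of over 1. At the other end, the Control level of let-7f-5p, 14.36 ± 0.46 (SD, n = 3), and its NEC level, 14.34 ± 0.29 (SD, n = 3), differed by -0.011 with a standard error of 0.31. Shifting the libraries to equal back-transformed totals gave let-7f-5p a difference of 0.029, and 0.047 where the 10 most abundant miRNAs were left out of the totals.

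Among the members the closest to a clean separation was miR-98-5p, whose Control libraries were at 8.80 ± 0.30 (SD, n = 3) and NEC libraries at 8.51 ± 0.11 (SD, n = 3), which is -0.29 with a standard error of 0.25. Its highest NEC value, 8.59, lay just under its lowest Control value, 8.60, and an exact two-sided permutation test gave p = 0.1, the smallest that 3 libraries against 3 allow. It was 1 of 9 members with NEC values wholly under Control values, where 4.92% of all miRNAs tested had this pattern. The other 6 members had overlapping groups and log2 differences from -0.29 for let-7d-5p to -0.16 for let-7g-5p. The exact two-sided permutation p of the 8 members other than miR-98-5p was 0.4 to 1.

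**Figure D2:**
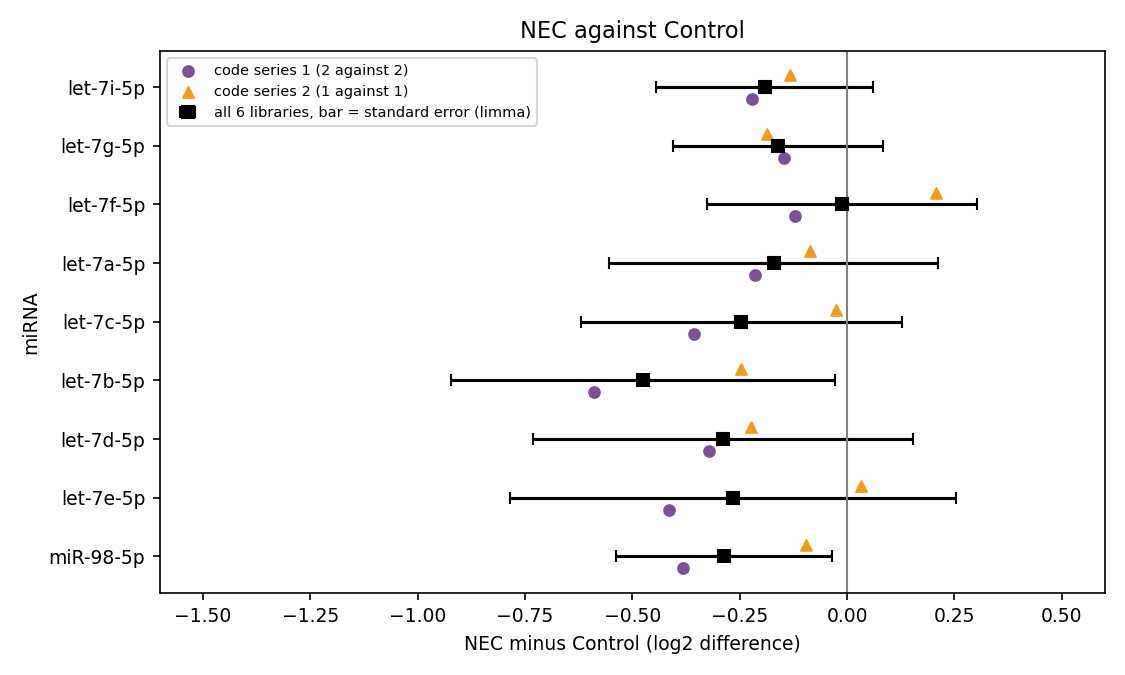
NEC minus Control (x axis, log2 difference) for the 9 members (y axis, ordered by mean level). Squares with bars give the difference over 6 libraries with its standard error from limma, and circles and triangles the differences within code series 1 and 2. The squares run from -0.47 for let-7b-5p to -0.011 for let-7f-5p.

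Within code series 1, with 2 libraries against 2, the differences of the 9 members were -0.59 to -0.12. Within code series 2, with 1 library against 1, they were -0.25 to 0.21, and let-7f-5p (0.21) and let-7e-5p (0.03) were higher in NEC. Thus 7 of 9 members were lower in NEC within both code series, a pattern that 33.4% of all miRNAs tested had. When limma took the code series as a covariate, let-7b-5p had the smallest adjusted p of the members, 0.251, at the same log2 difference of -0.47 (standard error 0.15, 95% interval -0.84 to -0.11). It was the 1 member with an unadjusted p under 0.05 in this fit, where 8.55% of all miRNAs tested were lower at that threshold. No member and no other miRNA passed an adjusted p under 0.05 in this fit either (0% called, 70 miRNAs at an unadjusted p under 0.05, limma).

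The sign of 4 members rested on 1 library. Without Control replicate 1 the log2 difference was 0.15 for let-7e-5p, 0.24 for let-7f-5p and 0.09 for let-7a-5p, and the median over the members was -0.02. Without NEC replicate 1 it was 0.06 for let-7d-5p, 0.08 for let-7e-5p, 0.09 for let-7f-5p and 0.10 for let-7a-5p. Without NEC replicate 2 let-7f-5p was at 0.06. The differences of let-7b-5p, let-7c-5p, let-7g-5p, let-7i-5p and miR-98-5p stayed below 0 whichever single library was left out, but most came close to 0 without Control replicate 1. There let-7c-5p was at -0.014, let-7i-5p at -0.015, let-7g-5p at -0.06, miR-98-5p at -0.11 and let-7b-5p at -0.22. The differences of let-7b-5p ran from -0.90 without Control replicate 3 to -0.16 without NEC replicate 1.

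The larger contrast among the members was between the code series. In code series 2, let-7e-5p, let-7b-5p, let-7d-5p, let-7a-5p and let-7c-5p fell, while let-7f-5p, let-7i-5p, miR-98-5p and let-7g-5p did not pass the test. This is 5 of 9 members lower (limma with the condition as a covariate, adjusted p under 0.05), beside 32.1% of all miRNAs tested that were lower and 25.4% that were higher. No member was higher at that threshold. A miRNA that reached the minimum in code series 1 alone could be tested. One that reached it in code series 2 alone, with 2 libraries, could not, so the shares over all miRNAs can lean towards lower. The median log2 difference of series 2 minus series 1 was -0.85 over the members and -0.19 over all 386 miRNAs. The differences below are also given relative to that median, because another scaling of the libraries moved it to -0.53 or to 0.02. As deposited, 124 miRNAs were lower and 98 higher, and 199 were lower and 51 higher after shifting the libraries to equal totals. Leaving the 10 most abundant miRNAs out of those totals gave 78 lower and 113 higher, and a shift by the median deviation gave 96 and 115.

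The greatest fall was that of let-7e-5p, which had a mean of 11.67 in code series 1 and of 10.40 in code series 2. Series 2 minus series 1 was -1.27 on the log2 scale (standard error 0.22, limma adjusted p = 0.00295), or -1.08 relative to the median miRNA. For let-7b-5p the difference was -1.10 (standard error 0.16, adjusted p = 0.0015), and for let-7d-5p, whose hairpin is a neighbour of let-7a-1 and let-7f-1, -1.10 (standard error 0.15, adjusted p = 0.00116). Relative to the median these were -0.92 and -0.91. The abundant let-7a-5p fell by 0.88 on the log2 scale (standard error 0.17, adjusted p = 0.00388) and let-7c-5p by 0.85 (standard error 0.17, adjusted p = 0.00443). Relative to the median these were -0.69 and -0.66. In these 5 members both libraries of code series 2 lay under all 4 of code series 1. The share of all miRNAs with this pattern was not counted, and miR-191-5p and miR-145a-5p outside the family had it too. Without Control replicate 3, let-7c-5p was at -0.68 (adjusted p = 0.0657 from limma) and no longer passed the test.

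Of the other 4 members, let-7f-5p was at -0.46 on the log2 scale (standard error 0.22, limma adjusted p = 0.11), and its 2 values of series 2 also lay under those of series 1. The difference was -0.19 (standard error 0.19) for let-7i-5p, -0.08 (standard error 0.20) for miR-98-5p and 0.06 (standard error 0.19) for let-7g-5p. Relative to the median miRNA, these 4 stood at -0.27, -0.001, 0.11 and 0.25. The signs of let-7i-5p, miR-98-5p and let-7g-5p against 0 turned with the scaling of the libraries. At equal totals let-7f-5p (-0.80) and let-7i-5p (-0.53) passed the test as well. The 95% interval of let-7g-5p, -0.38 to 0.49, and that of let-7e-5p, -1.79 to -0.75, did not meet. Both were picked as the ends of the order by this difference, so the gap is a description and no test.

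**Figure D3:**
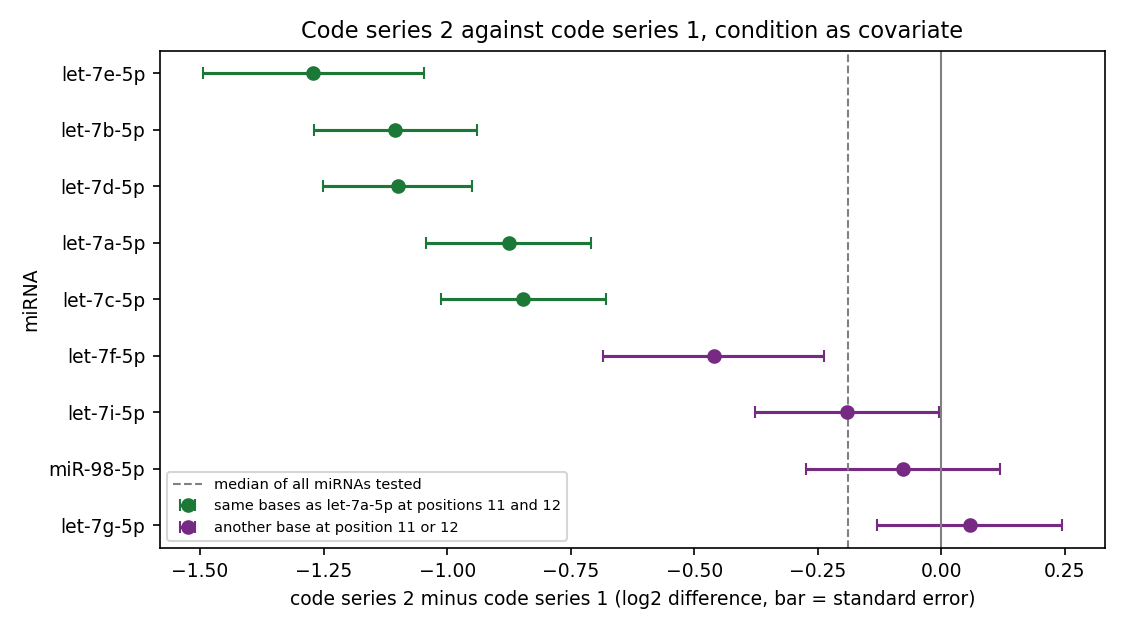
Code series 2 minus code series 1 (x axis, log2 difference with its standard error from limma, condition as covariate) for the 9 members (y axis, ordered by the difference). Green marks the 5 members with the bases of let-7a-5p at positions 11 and 12 and purple the 4 with another base there, and the dashed line is the median of all miRNAs tested, -0.19.

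Ratios within a library do not depend on the scaling. The pair shown first was taken from the ends of the order by difference between the series, so its separation is a description. The value of let-7e-5p minus that of let-7g-5p was -2.47, -2.70, -2.57 and -3.14 in Control replicates 1 and 2 and NEC replicates 2 and 3, and -4.16 and -3.94 in Control replicate 3 and NEC replicate 1. Control and NEC overlapped in this ratio, and the code series did not. For let-7a-5p minus let-7f-5p the series were hardly apart, with -1.88 to -1.45 in series 1 and -2.18 and -1.89 in series 2. As a share of the family's back-transformed values, let-7e-5p made up 2.22% to 3.13% in code series 1 and 1.36% and 1.47% in code series 2. For let-7b-5p the shares were 2.22% to 3.75% against 1.80% and 1.60%. The share of let-7g-5p was 17.4% to 19.6% in code series 1 and 24.3% and 22.6% in code series 2. That of let-7i-5p was 40.7% to 42.9% in code series 1 and 46.6% and 45.0% in code series 2.

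**Figure D4:**
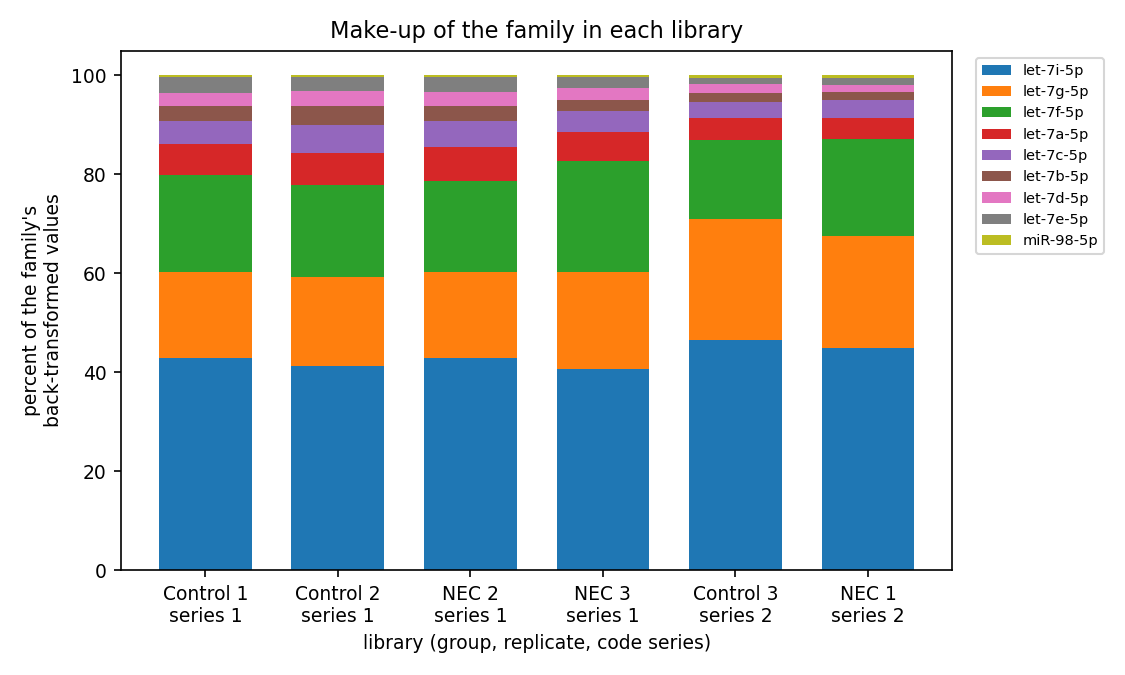
Percent of the family's back-transformed values (y axis) held by each member in each library (x axis, ordered by code series), as stacked bars that sum to the family. The let-7g-5p segment is 24.3% and 22.6% in the 2 libraries of series 2 and at most 19.6% in the others, and the let-7i-5p segment is 46.6% and 45.0% in series 2 and 40.7% to 42.9% in series 1.

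What the members that fell share in sequence was looked at after their values had been seen, so it is a description without a test. The 5 members lower in series 2 have the bases of let-7a-5p at positions 11 and 12, and the other 4 carry G12A, G12U or G11A. The differences of the first set were -1.27 to -0.85 and those of the second -0.46 to 0.06. These bases lie at the middle of the miRNA. Outside the family, 32 tested miRNAs had the same bases at positions 11 and 12. Of these, 10 were lower and 7 higher in series 2, and 31.2% lower compares with 31.1% of the 331 tested miRNAs outside the family that had a sequence.

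Some marker miRNAs of cell types differed between the code series, where 32.1% of all miRNAs tested were lower and 25.4% higher in series 2. Of 8 epithelial miRNAs tested, 5 were higher and 1 was lower in series 2 (limma, adjusted p under 0.05), and their summed level was 19.01 to 19.18 in series 2 and 18.27 to 18.72 in series 1. Of 4 miRNAs of smooth muscle and mesenchyme 2 were lower, with summed levels of 18.92 to 18.96 and 18.64 to 19.42. Of the 3 leukocyte miRNAs analysed of 5 listed, 1 was lower, miR-342-3p, while miR-150-5p and miR-223-3p did not pass. Their summed levels were 8.41 to 8.65 in series 2 and 9.37 to 9.81 in series 1. Of 3 striated muscle miRNAs 1 was lower and 1 higher. Of the 2 red blood cell miRNAs tested of 3 listed 1 was lower, and miR-122-5p of the liver did not pass. Neuronal miR-124-3p stayed under the minimum in each library, while miR-9-5p was at 5.68 in NEC replicate 1 and at 1.36 to 1.45 in the other 5. The part of cell types, or of how the libraries were made, in the let-7 difference between the series was not tested.

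The 3p arms, which are mostly discarded when the 5p arm is loaded into Argonaute, were measured from the same hairpins but were not used to choose the members. Of the 9 listed, 4 passed the minimum, and none of these passed an adjusted p under 0.05 between NEC and Control in limma. The most abundant was let-7d-3p, with 10.89, 10.48 and 9.39 in Control and 9.11, 10.51 and 10.28 in NEC. It fell in code series 2 by 1.29 on the log2 scale (standard error 0.17, adjusted p = 0.00103 from limma), about as far as let-7d-5p. The value of let-7d-5p minus let-7d-3p was 1.01 to 1.23 in code series 1 and 1.30 and 1.35 in code series 2.

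The rows named for the arms of let-7a-1 stood closer together in code series 2. The values of let-7a-1-3p were 6.24, 6.27 and 7.42 in Control and 7.02, 6.35 and 6.39 in NEC, and were higher in series 2 by 0.90 on the log2 scale (standard error 0.17, adjusted p = 0.00357 from limma). The 5p arm thus stood 6.40 to 6.96 above the 3p arm in code series 1 and 4.63 and 4.95 above it in code series 2. This is no measure of 1 hairpin, since reads of let-7a-5p can also come from let-7a-2, and let-7a-1-3p has the same sequence as let-7c-2-3p. For let-7f-1 the arms stood 8.44 to 9.06 apart in series 1 and 8.50 and 8.88 apart in series 2, and for let-7e 8.02 to 8.37 and 7.13 and 7.39. The 3p arm of let-7e reached the minimum in code series 1 alone. Its values in code series 2, 3.25 and 3.02, lay under it, so the let-7e arm difference there is uncertain. The 5 other 3p arms, of let-7b, let-7c-1, let-7c-2, let-7i and miR-98, did not pass the minimum and were not tested. Those of let-7c-2, let-7i and miR-98 reached a back-transformed value of 10 in code series 2 alone, so in fewer than 3 libraries. Of the 5 arms, let-7i-3p was listed at 1.52 to 1.72 in series 1 and at 3.45 and 3.22 in series 2, and miR-98-3p at 2.38 to 3.11 and at 4.40 and 4.31. The other way, let-7b-3p was listed at 1.15 to 1.62 in series 1 and at 0.98 and 0.96 in series 2, and let-7c-1-3p at 0.84 to 1.06 and at 0.71 and 0.69.

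**Figure D5:**
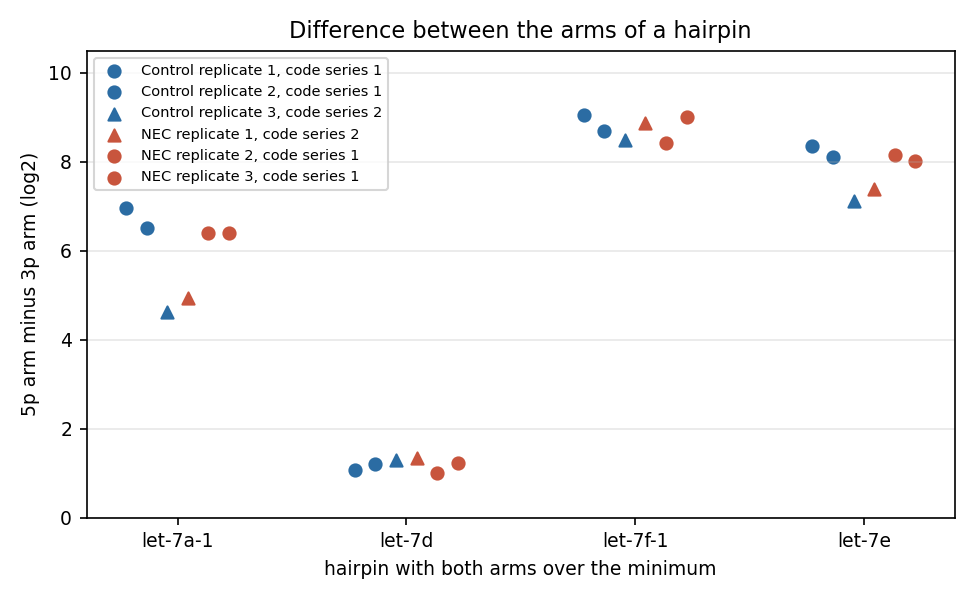
Difference between the 5p and the 3p arm (y axis, log2) for the 4 hairpins whose arms both passed the minimum (x axis), in each library, coloured by group and shaped by code series. The let-7d arms differ by 1.01 to 1.23 in series 1 and by 1.30 and 1.35 in series 2, and for let-7a-1 the triangles of series 2, at 4.63 and 4.95, lie under the circles, at 6.40 to 6.96. The 3p arm of let-7e reached the minimum in the libraries of series 1 alone.

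A pair of 3p arms is shown because 1 sequence has 2 rows in the table.
mmu-let-7a-1-3p: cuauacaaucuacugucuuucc
mmu-let-7c-2-3p: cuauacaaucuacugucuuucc

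These 22 bases are the same, from chr13:48538188-48538209 on the minus strand and chr15:85706664-85706685 on the plus strand of GRCm38.p6, yet let-7a-1-3p stood 3.45 to 4.40 above let-7c-2-3p in the 6 libraries. A read of exactly this sequence cannot tell the 2 hairpins apart, so neither value can be tied to 1 locus. Both rows were higher in code series 2 than in code series 1.

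An entry that carries the family's name without its seed is let-7j, shown for that reason with bases 2 to 8 in capitals.
mmu-let-7j: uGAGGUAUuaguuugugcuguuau

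Its values, under the minimum, were 2.99, 2.39 and 2.74 in Control and 2.35, 1.99 and 2.20 in NEC, and the groups did not overlap. They were not tested, and values this low appear to be drawn towards their mean over libraries.

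The miRNAs of the miR-99/100 and miR-125 families, whose hairpins stand beside let-7c-1, let-7a-2 and let-7e, were listed as companions, and 9 of 11 listed were tested. None passed an adjusted p under 0.05 between NEC and Control, and their median log2 difference was -0.07. By sign 5 were lower and 4 higher, where 48.2% of all miRNAs tested were lower. The companion of let-7c-1, miR-99a-5p, was at 13.99, 13.81 and 14.15 in Control and 14.18, 14.45 and 14.30 in NEC, so that every NEC value lay above every Control value (log2 difference 0.32, standard error 0.23, adjusted p = 0.998 from limma). The share of all miRNAs with NEC wholly above Control was not counted. In code series 2, 5 of the 9 were lower and 2 higher at an adjusted p under 0.05. Over all miRNAs tested, 32.1% were lower and 25.4% higher. Among the 5, miR-125a-3p reached the minimum in code series 1 alone, with values of 3.14 and 2.99 in code series 2. The neighbour of let-7e, miR-125a-5p, fell by 1.71 on the log2 scale (standard error 0.14, adjusted p = 0.000123 from limma), and miR-99b-5p of the same locus by 0.89 (standard error 0.17, adjusted p = 0.00383).

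The tested miRNAs outside the family whose pattern over the 6 libraries was most like the mean of the members were miR-125a-3p, miR-221-5p, miR-1943-5p, miR-151-5p and miR-10a-5p. Of these, miR-125a-3p and miR-1943-5p reached the minimum in code series 1 alone, where the mean of the members was also higher. In code series 2 miR-1943-5p was at 3.20 and 3.05. The likeness of these low-level miRNAs is thus a description only. Likeness was measured as the root mean square distance between the values, each centred on its own mean over the libraries, and was 0.065 on the log2 scale for miR-125a-3p and 0.092 for miR-10a-5p. The members' own distances from their mean were 0.112 for let-7a-5p to 0.353 for let-7g-5p. The mean of the members was 13.00, 12.57 and 12.02 in Control replicates 1, 2 and 3 and 11.94, 12.45 and 12.50 in NEC replicates 1, 2 and 3. For miR-125a-3p the values were 4.01, 3.71 and 3.14 in Control and 2.99, 3.66 and 3.57 in NEC. Control replicate 1 was highest and NEC replicate 1 lowest in both.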

How the data were processed

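Small RNA of mouse intestine was sequenced by the authors in 3 Control and 3 NEC libraries, as single-end reads of 50 nt. The deposited table holds normalized log2 values of 604 miRNAs, which the authors made against mm10. The sources used here name neither the transformation nor the depth nor how reads that fit several miRNAs were counted, so counting intervals could not be had. All 6 columns were matched to samples by name.

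miRNAs with a back-transformed value of at least 10 (a log2 value of 3.32) in 3 or more libraries were tested with limma 3.58.1 in R 4.3.3, with Benjamini-Hochberg adjustment over all 386 and a threshold of 0.05. NEC was compared with Control without covariates, and the code series with the condition as a covariate. Single miRNAs were also compared by exact two-sided permutation. The fits were tested on simulated data. The members and lists were chosen with earlier results of these data known. Named were all 9 members, listed relatives and the 5 miRNAs nearest to the members' mean. Alternatives were other minimums, scalings, added constants, left-out libraries, a replicate block and the code series.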

Additional observations from a re-analysis of the deposited data

How the results depend on the processing

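No member passed an adjusted p under 0.05 between NEC and Control under any alternative run, and 2 miRNAs outside the family did in code series 1 alone (limma). The log2 difference of let-7f-5p turned to 0.029 at equal totals and to 0.047 at equal totals without the 10 most abundant miRNAs. Leaving out 1 library gave ranges of -0.48 to 0.10 for let-7a-5p, -0.672 to 0.0619 for let-7d-5p, -0.76 to 0.15 for let-7e-5p and -0.22 to 0.24 for let-7f-5p. Without Control replicate 1 the members' median was -0.02 with 6 of 9 below 0, and without NEC replicate 1 it was -0.02 with 5 of 9 below 0.

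The deviations of libraries with the same replicate number correlated at -0.69, 0.73 and -0.78. Control and NEC libraries of the same code series correlated at 0.57 to 0.87, and those of different series were all negative. The signs thus followed the series, so the values cannot show whether the numbers pair the libraries. With a replicate block 0 miRNAs passed, as without it, 3 miRNAs had an unadjusted p under 0.05 in place of 11 (limma), and let-7b-5p stayed at -0.47.

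Between the code series, miR-98-5p turned to 0.0823 with a shift by the median deviation and to 0.13 at equal totals without the 10 most abundant, where let-7i-5p was at 0.0156. At equal totals let-7g-5p was at -0.28. Leaving out 1 library gave -0.22 to 0.0655 for miR-98-5p and -0.0407 to 0.149 for let-7g-5p, and 118 (without NEC replicate 1) to 210 (without Control replicate 1) miRNAs called in place of 222, with 133 without Control replicate 3. Of the 5 members called, 4 passed in 14 of 14 settings and let-7c-5p in 13. The mean share of the back-transformed signal held by the family was 6.48% (Control) and 5.91% (NEC). Set against a total without the 10 most abundant miRNAs, the family sum came to 23.2% and 21.5%. The family sum kept let-7i-5p, which that total left out, so the latter values are ratios and no shares. The causes were not tested. Values under the minimum appear to be drawn towards their mean, so differences among them may be limited.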
